A study of Homo sapiens with 14 samples.

Results

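The Ran GTPase cycle and its nuclear transport receptors are described here through 7 genes: RCC1, RANGAP1, RANBP1, RAN, KPNB1, TNPO1 and XPO1. They were taken by gene symbol from the guide count tables, out of 19114 genes in the knockout library and 18886 in the activation library. They have 28 of the 77441 knockout guides (4 per gene) and 21 of the 56762 activation guides (3 per gene). The genes were chosen by guide folds in these screens. For RANBP1 this was the higher level under oxaliplatin than in untreated RKO knockout cells, and for the other genes the comparison behind the choice is not recorded, so all values below are descriptions.

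Pooled screens were run in RKO and SW620, both human colorectal cancer lines. Cells in the knockout screens carried Cas9 and the Brunello guide library, and cells in the activation screens carried dCas9-VP64, a catalytically dead Cas9 fused to a transcriptional activator, and the Calabrese guide library. The RKO groups were day 20 under 1.9 µM oxaliplatin, a platinum drug that damages DNA, untreated day 20 and untreated day 0. The SW620 groups were untreated day 0, untreated day 20 and day 20 under 0.38 and 0.5 µM oxaliplatin. Each of the 14 conditions is 1 library, so no comparison has a replicate check and no p-value is given. A pool of transduced cells is not a clone, and the labels do not say how far each guide cut or activated its gene. Expression was not measured, and line identity was not checked here.

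Ran is a small GTPase that switches between a GTP-bound and a GDP-bound form. RCC1, which sits on chromatin, loads Ran with GTP in the nucleus, and RANGAP1, the GTPase-activating protein, makes it hydrolyse GTP in the cytoplasm with the help of RANBP1. KPNB1 (importin beta 1) and TNPO1 (transportin 1) carry cargo into the nucleus and release it when RanGTP binds, while XPO1 (exportin 1, CRM1) carries cargo out together with RanGTP. The same cycle guides spindle assembly and rebuilding of the nuclear envelope in dividing cells.

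Activation guides act near the start of a gene, so 2 promoters are shown, that of RAN, the GTPase itself, and that of the export receptor XPO1. They are the 250 bases before the RefSeq start on GRCh38.p14, RAN at chr12:130871816-130872065 on the plus strand and XPO1 (first of its listed starts) at chr2:61538357-61538606 on the minus strand. Of the 7 genes, 5 matched the RefSeq promoter table. Capitals mark CACGTG (the E-box), CCAAT and GGGCGG (the GC box), searched on both strands.
RAN: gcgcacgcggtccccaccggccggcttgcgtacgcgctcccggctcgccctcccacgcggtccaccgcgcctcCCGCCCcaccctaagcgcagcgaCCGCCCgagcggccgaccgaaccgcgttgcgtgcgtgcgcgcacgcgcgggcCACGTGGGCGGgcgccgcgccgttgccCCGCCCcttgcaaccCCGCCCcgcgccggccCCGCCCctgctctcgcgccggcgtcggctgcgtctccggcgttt
XPO1: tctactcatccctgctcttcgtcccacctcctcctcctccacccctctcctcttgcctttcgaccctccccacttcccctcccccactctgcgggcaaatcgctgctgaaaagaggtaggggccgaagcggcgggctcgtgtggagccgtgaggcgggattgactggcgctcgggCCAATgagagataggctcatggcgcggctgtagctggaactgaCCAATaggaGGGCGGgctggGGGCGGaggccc
The RAN window held 6 GC boxes and 1 E-box, which shares 1 base with a GC box, and had a GC content of 81.2%. The XPO1 window held 2 CCAAT boxes and 2 GC boxes and had a GC content of 65.2%. Among 35116 windows of the same length in that table, 6.34% held CACGTG, 32.0% held CCAAT and 42.6% held GGGCGG. A match is a description of the letters and not evidence of a bound factor.

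Library totals were 3647823 to 69526489 counts. The most abundant 1% of guides made up 41.4% of the RKO oxaliplatin knockout library, 31.5% in the SW620 0.5 µM knockout library and 52.8% in the RKO oxaliplatin activation library, against 2.16% to 3.88% in the untreated libraries. Counts were scaled by median-ratio size factors, and a guide's log2 fold was taken with 5 scaled counts added to both libraries. Guides that averaged under 20 scaled counts over the compared libraries were left out. The value of a gene is the median over its guides, and a gene is called when this median is at least 2-fold up or down and lies outside the central 95% of the non-targeting guides in the same comparison. Guides of 1 gene share a target and are not replicates of a condition. Intervals in brackets are exact 95% intervals of the count ratio on the log2 scale, and they cover counting error only. They were computed with nothing added to the counts, so they are not centred on the folds printed beside them.

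Knockout guides against all 7 genes were depleted in untreated RKO cells over the 20 days. All 7 gene medians were called lower at day 20 than at day 0, with log2 folds between −4.53 for RANGAP1 and −2.05 for RANBP1, where the median of all genes was 0.09. Of all 19078 genes scored, 11.6% were called lower. Of the 28 guides, 25 passed the filter and all 25 lay below the non-targeting range of −0.13 to 0.96, as did 35.2% of all guides in the screen.

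The regulators of the Ran nucleotide state spanned this whole range. RCC1 guides had 8.02, 8.74, 64.9 and 51.0 scaled counts in untreated day 20 cells, against 447, 169, 341 and 288 at day 0. RANGAP1 guides had 79.4, 0, 5.10 and 32.1 scaled counts at day 20, against 381, 337, 439.8 and 444 at day 0. RANBP1 guides had 40.8, 43.7, 87.4 and 87.4 scaled counts at day 20, against 192, 415, 361 and 273 at day 0. In these 3 genes the day 20 and day 0 levels did not overlap. The share of all genes with such a separation was not counted. The guide of RANGAP1 at 0 was at least 154-fold lower at day 20, taking 3 counts as the limit a count of 0 allows. The log2 folds of the gene medians were −3.03 for RCC1, −4.53 for RANGAP1 and −2.05 for RANBP1, which ranked 784, 139 and 1366 from the bottom of the genes scored.

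RAN itself had 4 guides at 0, 0, 6.56 and 23.3 scaled counts in untreated day 20 RKO cells, against 117, 13.7, 95.3 and 302 at day 0. Its guide with 13.7 scaled counts at day 0 did not pass the filter. The median log2 fold over the other 3 guides was −3.44, and the guide at 0 among them was at least 53.4-fold lower at day 20.

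Guides against the transport receptors were also called lower. KPNB1 guides had 0, 0, 18.2 and 0 scaled counts at day 20, against 35.1, 45.0, 79.3 and 107 at day 0. TNPO1 guides had 53.9, 29.9, 2.91 and 43.7 scaled counts at day 20, against 268, 282, 70.9 and 370 at day 0. XPO1 guides had 3.64, 0 and 0 scaled counts at day 20, against 38.1, 82.3 and 139 at day 0, and its last guide had no count in any of the 7 knockout libraries. Day 20 and day 0 levels of KPNB1 and of those 3 XPO1 guides did not overlap, and the TNPO1 levels did not either. How many of all genes separate in this way was not counted. The median log2 folds were −3.32 for KPNB1, −2.99 for TNPO1 and −4.13 for XPO1.

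Several of these medians rest on guides at 0 and so depend on the added 5 scaled counts. With guides at 0 set to 3 counts and nothing added, the XPO1 median corresponds to at least 37.7-fold lower and the KPNB1 median to at least 20.6-fold lower at day 20. The folds of the guides of 1 gene had SDs of 0.45 to 1.78 on the log2 scale. The medians of RAN, KPNB1, RCC1 and TNPO1 lay between −3.44 and −2.99 and did not differ beyond that spread.

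**Figure D1:**
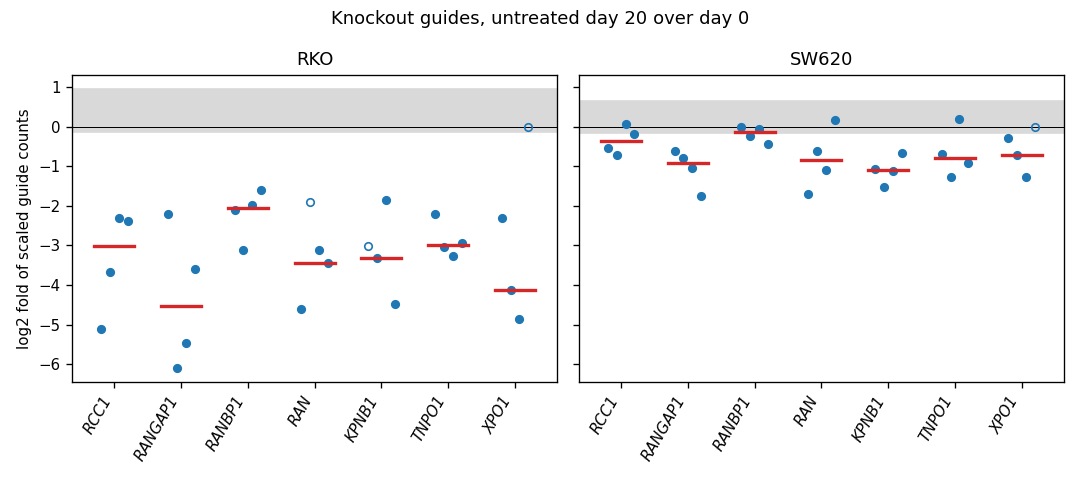
Log2 folds of knockout guides, untreated day 20 over day 0, in RKO (left) and SW620 (right). Filled points are guides that passed the filter, open points guides that did not, red bars gene medians and the grey band the central 95% of non-targeting guides. All passing RKO guides lie below the band, with medians from −4.53 to −2.05, while SW620 medians lie between −1.10 and −0.14.

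In SW620 the same 7 genes had small negative folds over the same 20 days. KPNB1 was called lower with a median log2 fold of −1.10, and 1.2% of the 19100 genes scored were called lower. The other medians were −0.92 for RANGAP1, −0.84 for RAN, −0.80 for TNPO1, −0.70 for XPO1, −0.37 for RCC1 and −0.14 for RANBP1. Of 27 passing guides 22 lay below the non-targeting range of −0.17 to 0.65, against 28.7% of all guides. The depletion range of the whole SW620 screen was narrower, with the lowest 5% of genes below −0.56, against −2.74 in RKO. From the bottom of 19100 genes in SW620, KPNB1 ranked 177, RANGAP1 299, RAN 386, TNPO1 447, XPO1 605, RCC1 1773 and RANBP1 4188. In the same order, the RKO ranks were 617, 139, 560, 807, 268, 784 and 1366 of 19078 genes.

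The KPNB1 guides had 131, 56.6, 202 and 251 scaled counts in untreated day 20 SW620 cells, against 282, 172, 445 and 401 at day 0, and each guide was lower at day 20. RANBP1 guides had 383, 542, 495 and 254 scaled counts at day 20, against 383, 637, 516 and 348 at day 0. The ranges overlapped in part, no RANBP1 guide had a fold above 0, and 2 of its 4 guides lay below the non-targeting range. The RAN guide numbered 15788 differed from its partners. It had 528 scaled counts at day 20, against 468 at day 0, while the other RAN guides had 150.3, 39.6 and 141 at day 20, against 503, 62.7 and 305 at day 0.

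The difference between the lines was taken guide by guide as the RKO log2 fold minus the SW620 log2 fold. All 7 genes were called lower in RKO, with differences between −3.43 for XPO1 and −1.79 for KPNB1, and of all genes 10.3% were called lower and 0.126% higher in the same way. RANBP1, at −2.02, had differences of −2.88 to −1.14 over its 4 guides. The difference was not tested, since each line has 1 library per condition.

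The lines already differed at day 0, a comparison added after the values were seen. KPNB1, XPO1 and RAN were called lower in RKO than in SW620 at day 0, with median log2 folds of −1.55, −1.45 and −1.22, where 1.04% of all genes were called lower. They ranked 58, 71 and 119 from the bottom of 19100 genes. The median guide of KPNB1 stood at percentile 2.11 of all guides by count in RKO at day 0, against percentile 36.5 in SW620. The corresponding values were 2.18 and 20.8 for XPO1, and 6.73 and 43.5 for RAN. RCC1, RANGAP1, RANBP1 and TNPO1 had day 0 folds between −0.23 and 0.10 and were not called. The day 20 over day 0 folds of KPNB1, XPO1 and RAN in RKO therefore start from low day 0 counts. How long the cells had carried their guides at day 0 is known only as far as the labels give 3 days of selection.

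**Figure D2:**
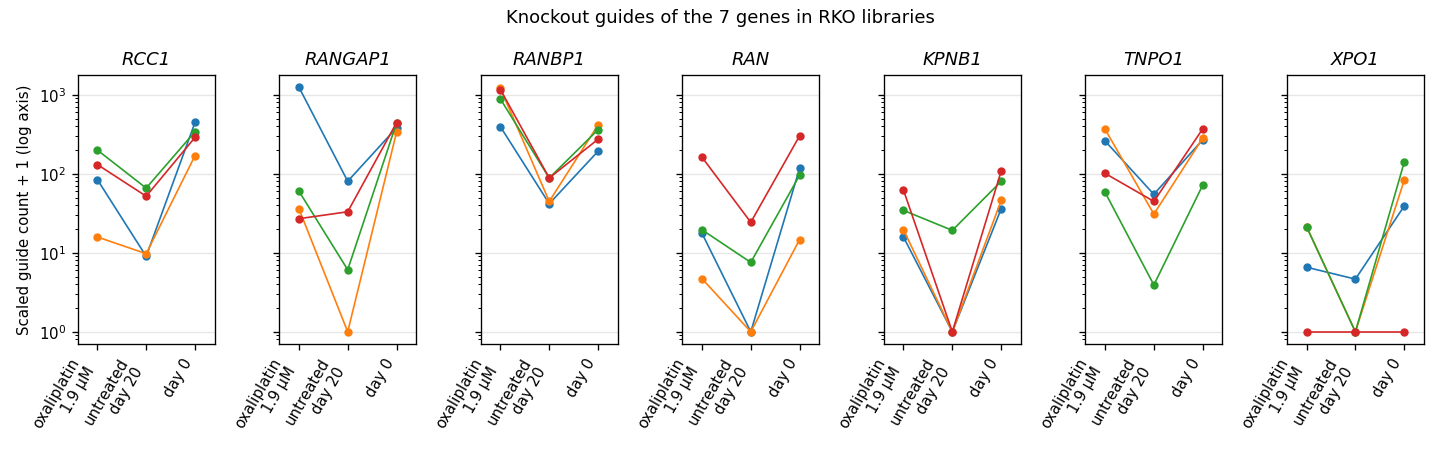
Scaled counts of each knockout guide (1 added, log axis) in the RKO oxaliplatin, untreated day 20 and day 0 libraries, with 1 panel per gene and 1 line per guide. All 4 RANBP1 guides are higher under oxaliplatin (394 to 1207) than in untreated cells (40.8 to 87.4) and than at day 0 (192 to 415), and XPO1 guides stay at 20.4 or less in both day 20 libraries. The RANBP1 rise over day 0 was not called.

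Under oxaliplatin, knockout guides against RANBP1 stood above both untreated day 20 and day 0 in RKO, though the rise over day 0 was not called. Its guides had 394, 1207, 884 and 1165 scaled counts in oxaliplatin cells, against 40.8, 43.7, 87.4 and 87.4 in untreated day 20 cells. The 2 sets did not overlap, and the share of all genes with such a separation was not counted. RANBP1 was chosen by this comparison, so its values here are descriptions and not support. The log2 folds of the 4 guides were 3.12 [2.84 to 3.72], 4.64 [4.40 to 5.19], 3.27 [3.05 to 3.64] and 3.66 [3.45 to 4.03]. All 4 lay above the non-targeting range of −1.39 to 2.42, and the gene median of 3.46 ranked 54 of 18449 genes.

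RANGAP1 and TNPO1 were also called higher under oxaliplatin than in untreated RKO cells, with medians of 2.67 and 2.58. These 3 calls are among 4 genes that could be scored, and 1.23% of all genes were called higher and 2.83% lower. RANGAP1 rested on divergent guides. Its guides had 1252, 35.3, 59.4 and 26.0 scaled counts under oxaliplatin, against 79.4, 0, 5.10 and 32.1 in untreated cells, so 3 guides were higher and the last was slightly lower. The guide with 0 untreated counts did not pass the filter and was at least 16.1-fold higher. The RANGAP1 median was the guide at 5.10 untreated scaled counts, which passed the filter only through its 59.4 under oxaliplatin. TNPO1 guides had 260.0, 366, 57.6 and 100.3 scaled counts under oxaliplatin, against 53.9, 29.9, 2.91 and 43.7 in untreated cells. All 4 TNPO1 guides were higher, and 2 of them lay above the non-targeting range. Without either of the guides numbered 10290 and 10291, the TNPO1 median was 2.17 and no longer called. Guide 10291, at 2.91 untreated scaled counts, also passed only through its oxaliplatin count. Guides so low in untreated cells were scored only if high under the drug, so the filter favoured upward folds.

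RCC1 had a median log2 fold of 1.54 over 3 guides, inside the non-targeting range. Its guides had 83.6, 14.9, 199 and 130.0 scaled counts under oxaliplatin, against 8.02, 8.74, 64.9 and 51.0 in untreated cells. The guide at 8.02 passed the filter only through its oxaliplatin count. RAN, KPNB1 and XPO1 could not be scored, because at most 2 of their guides passed the filter. RAN guides had 16.7, 3.71, 18.6 and 162 scaled counts under oxaliplatin, against 0, 0, 6.56 and 23.3 in untreated cells. KPNB1 guides had 14.9, 18.6, 33.4 and 61.3, against 0, 0, 18.2 and 0. XPO1 guides had 5.57, 20.4, 20.4 and 0, against 3.64, 0, 0 and 0. Every guide of these 3 genes with a count in either library was higher under oxaliplatin in scaled counts. Many of them had 0 untreated counts and could not fall further, and the share of equally low guides that rose was not counted. The XPO1 guide at 3.64 had 5 raw counts untreated and 3 under oxaliplatin, so it was higher only after scaling. The KPNB1 guide numbered 10272 was at least 28.0-fold higher under oxaliplatin, at 33 counts. Over all guides without the filter, the medians were 1.57 for RAN, 2.11 for KPNB1 and 1.32 for XPO1, and none of these was called.

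These folds share the untreated library with the depletion folds above, where the same guides were low. Among the 2220 genes called lower in untreated RKO cells over time, 1609 could be scored here, and their median log2 fold under oxaliplatin over untreated was 0.72. Of these genes 152 were called higher and 21 lower. The part of this shift in the values of the 7 genes was not tested.

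Set against day 0, which leaves the untreated day 20 library out of the fold, the genes separated. RANBP1 had a median log2 fold of 1.40 under oxaliplatin over day 0, with all 4 guides above 0 at 1.02 [0.77 to 1.30], 1.53 [1.38 to 1.71], 1.28 [1.10 to 1.48] and 2.07 [1.90 to 2.28]. It was not called, since the non-targeting range was −0.90 to 2.94, with a median of 0.74. It ranked 776 of 19081 genes. The RANBP1 fold here shares the oxaliplatin library with the fold by which RANBP1 was chosen, so it is a description and not support. TNPO1, at −0.16, was not called either. RCC1 (−1.73), RANGAP1 (−2.94), RAN (−2.09), KPNB1 (−1.05) and XPO1 (−2.03) were called lower than at day 0. That is 5 of 7 genes, where 16.9% of all genes were called lower and 0.257% higher. The RANGAP1 guides split. The guide numbered 15797 had a log2 fold of 1.70, while the other 3 had folds of −3.86 to −2.79.

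**Figure D3:**
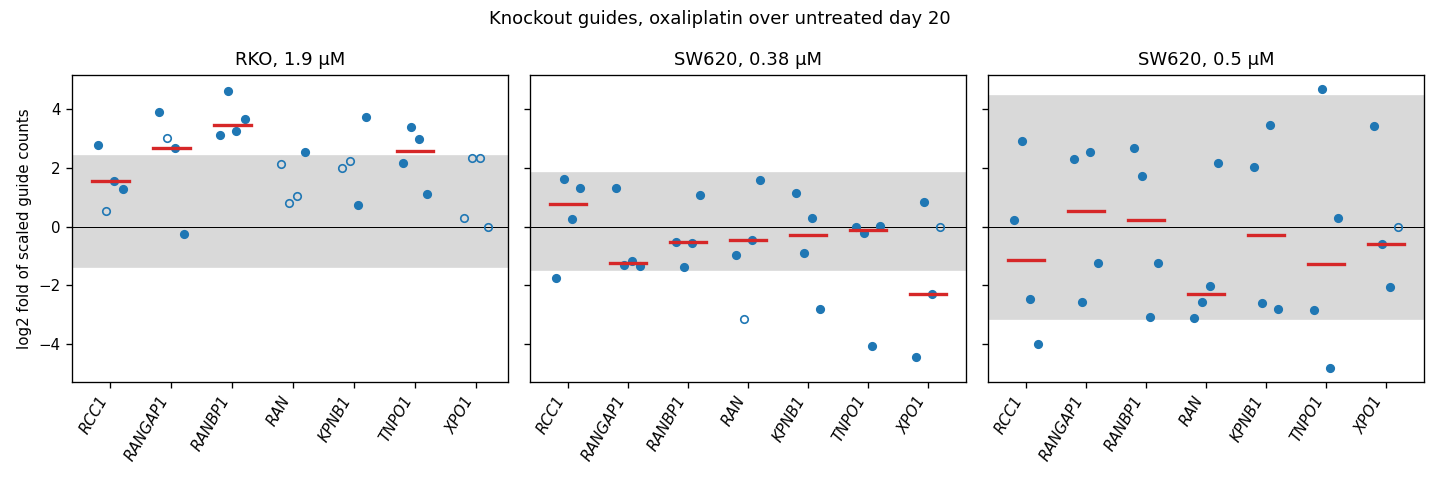
Log2 folds of knockout guides under oxaliplatin relative to untreated day 20, for RKO at 1.9 µM and SW620 at 0.38 and 0.5 µM. Filled points are guides that passed the filter, open points guides that did not, red bars gene medians (drawn where at least 3 guides passed) and the grey band the central 95% of non-targeting guides, which widens to −3.14 to 4.46 at 0.5 µM. RANBP1 guides lie above the band in RKO and on both sides of 0 in SW620.

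In SW620, oxaliplatin gave no shift shared by the guides of these genes. At 0.38 µM, XPO1 was called lower than in untreated cells with a median log2 fold of −2.28, where 3.33% of all genes were called lower and 0.23% higher. The other medians were between −1.25 for RANGAP1 and 0.79 for RCC1 and were not called. At 0.5 µM no gene was called, with medians from −2.28 for RAN to 0.53 for RANGAP1, where 1.38% of all genes were called lower and 0.0419% higher. The SW620 doses are lower than the RKO dose, so values of the lines under the drug are not at matched doses.

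Guides of 1 gene diverged in each of these libraries. At each dose all 7 genes had passing guides on both sides of 0, as did 85.0% and 85.1% of all genes at 0.38 and 0.5 µM. The SDs of the log2 folds over 4 guides at 0.5 µM were 2.41 to 4.15 for the 6 genes with all guides passing, against a median of 2.22 over all genes. Of the 26 member guides that passed at both doses, 16 had folds of the same sign.

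RANBP1 guides had 383, 542, 495 and 254 scaled counts in untreated SW620 cells, 265, 205, 336 and 544 at 0.38 µM, and 2455, 1805, 54.6 and 104 at 0.5 µM. The first pair of guides was high at the upper dose and the second pair low. The XPO1 guides with counts had 105, 215 and 246 in untreated cells, 0, 385 and 46.5 at 0.38 µM, and 1175, 140.4 and 54.6 at 0.5 µM. The XPO1 guide with no count at 0.38 µM was the highest at 0.5 µM. TNPO1 guides had 293, 217, 136 and 448 in untreated cells, 291, 187, 3.38 and 457 at 0.38 µM, and 36.4, 5749.9, 0 and 557 at 0.5 µM.

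RAN showed 1 guide against the others at both doses. The guide numbered 15788 had 528 scaled counts in untreated cells, 1609.7 at 0.38 µM and 2398 at 0.5 µM. The remaining RAN guides had 150.3, 39.6 and 141 in untreated cells, 74.4, 0 and 101 at 0.38 µM, and 13.0, 2.60 and 31.2 at 0.5 µM. KPNB1 guides 10269 and 10271 were likewise high at 0.5 µM, at 551 and 2262.5, against 131 and 202 in untreated cells. The other KPNB1 guides had 5.20 and 31.2 at 0.5 µM, against 56.6 and 251 in untreated cells.

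RCC1 and RANGAP1 guides also split. RCC1 guides had 587, 213, 599 and 364 in untreated cells, 169, 673, 720.3 and 911 at 0.38 µM, and 684, 1649, 104 and 18.2 at 0.5 µM. RANGAP1 guides had 380.5, 287, 288 and 179 in untreated cells, 955, 112, 125 and 67.6 at 0.38 µM, and 1909, 44.2, 1703 and 72.8 at 0.5 µM. The RANGAP1 guide numbered 15797 was thus above untreated at both SW620 doses, as it was in RKO.

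**Figure D4:**
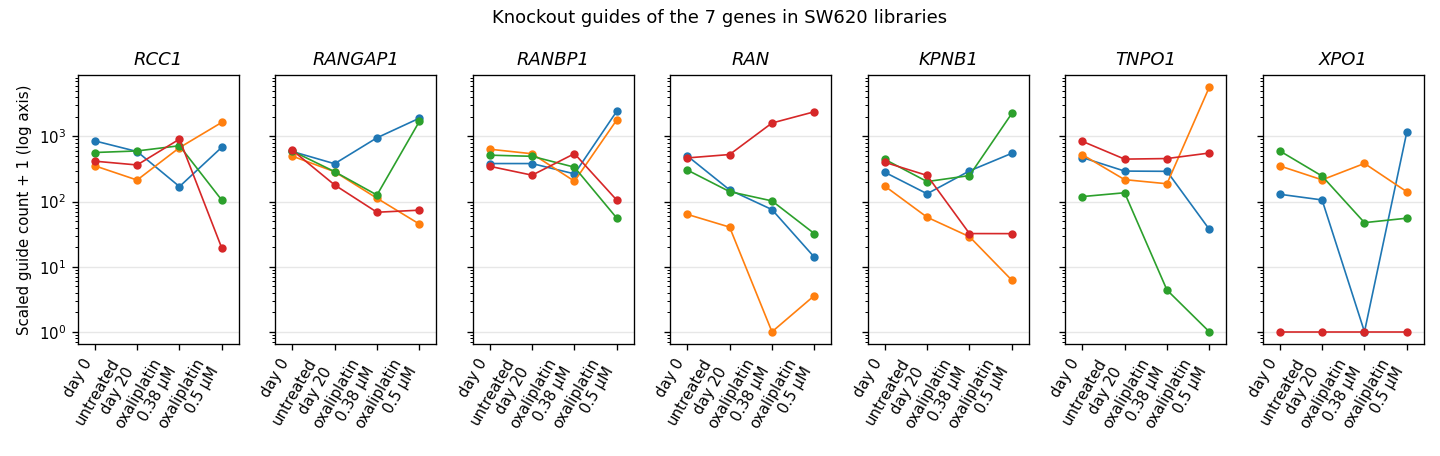
Scaled counts of each knockout guide (1 added, log axis) in the SW620 day 0, untreated day 20, 0.38 µM and 0.5 µM libraries, with 1 panel per gene and 1 line per guide. The guides of a gene differ in level already at day 0, as for TNPO1, from 118 to 844, and at 0.5 µM the TNPO1 guides run from 0 to 5749.9.

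Against day 0, RAN (−2.11), RANGAP1 (−2.16), KPNB1 (−1.62) and XPO1 (−3.55) were called lower at 0.38 µM, where 7.19% of all genes were called lower and 0.0785% higher. Without the KPNB1 guide numbered 10270 or that numbered 10272, its median was −0.82 and not called. At 0.5 µM, RAN was called lower at −3.13, where 4.17% of all genes were called lower and 0.0105% higher. Comparing 0.5 with 0.38 µM called none of the 7 genes, where 0.163% of all genes were called higher and 0.915% lower.

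The RKO minus SW620 difference in the fold of oxaliplatin over untreated called RANBP1 (3.73) and TNPO1 (2.90) higher in RKO with SW620 at 0.38 µM, out of 4 genes scored and with 1.98% of all genes called higher and 0.922% lower. Without the TNPO1 guide numbered 10290 or that numbered 10291, its difference was 2.18 and not called. Guide 10291 passed the RKO filter only through its oxaliplatin count. With SW620 at 0.5 µM it called RCC1 (4.01), where 1.46% of all genes were called higher and 0.146% lower. That call rested on 3 of the 4 RCC1 guides. Of these, the guide at 8.02 untreated scaled counts in RKO passed only through its oxaliplatin count. Over all 4 guides without the filter the RCC1 difference was 3.28 and was not called. RANBP1 was at 3.91 there, just inside the non-targeting range, which reached 3.94. RANBP1 differences were above 0 for all 4 guides with either dose. Their RKO part is the fold by which RANBP1 was chosen, so they are descriptions and not support. The doses of the lines differ, and the differences were not tested.

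Other nuclear transport genes were grouped in 6 lists of 73 genes that exclude the 7 above. In untreated RKO cells over time, 41 of 73 were called lower and 0 higher, with a list median of −1.24, against 11.6% of all genes called lower, 0 called higher and a median of 0.09 over all genes. Among nucleoporins, which build the nuclear pore, 20 of 31 were called lower, with RAE1 at −4.78 and NUP85 at −3.73. Among mRNA export genes 10 of 11 were called lower, with THOC3, a subunit of the THO complex, at −3.88 and NXF1, the main mRNA export receptor, at −2.87. Among other importin beta family members 6 of 10 were called lower, with IPO13 at −3.91 and IPO9 at −3.12. Among exportins 3 of 7 were, with CSE1L, which recycles importin alpha, at −4.26 and XPO5, an exporter of microRNA precursors, at −1.73. Among other genes listed as Ran regulators 2 of 7 were called lower. They were NUTF2, the carrier that returns RanGDP to the nucleus, at −4.01 and RANBP2, a pore protein that binds Ran, at −1.01. That list also holds RANBP9 and RANBP10, which were not called. Whether each of its genes acts in the Ran cycle was not checked. None of the 7 importin alpha genes was called, and their median was 0.15.

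Under oxaliplatin over untreated day 20 in RKO, 4 of the 66 list genes scored were called higher and 2 lower, and the list median was 0.38, against 1.23% of all genes called higher, 2.83% lower and a median of 0.03. The calls with the largest folds were NUP37 (3.58) and NUP188 (3.08) among nucleoporins and XPO7 (3.11) among exportins. The 2 genes called lower, NUP107 (−2.11) and GLE1 (−1.54), were also in the nucleoporin list. In untreated SW620 cells over time, 2 of 73 were called lower, NUP43 at −1.27 and THOC3 at −1.79, against 1.2% of all genes. At 0.38 µM over untreated, 9 of 73 were called lower, against 3.33% of all genes, with RANBP2 at −3.87, NUP88 at −2.94, NUP43 at −2.83, IPO9 at −2.09 and RANBP3, a cofactor of XPO1, at −1.82. At 0.5 µM 1 of 73 was, NUPL2 at −3.14, a share near the 1.38% of all genes called lower.

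**Figure D5:**
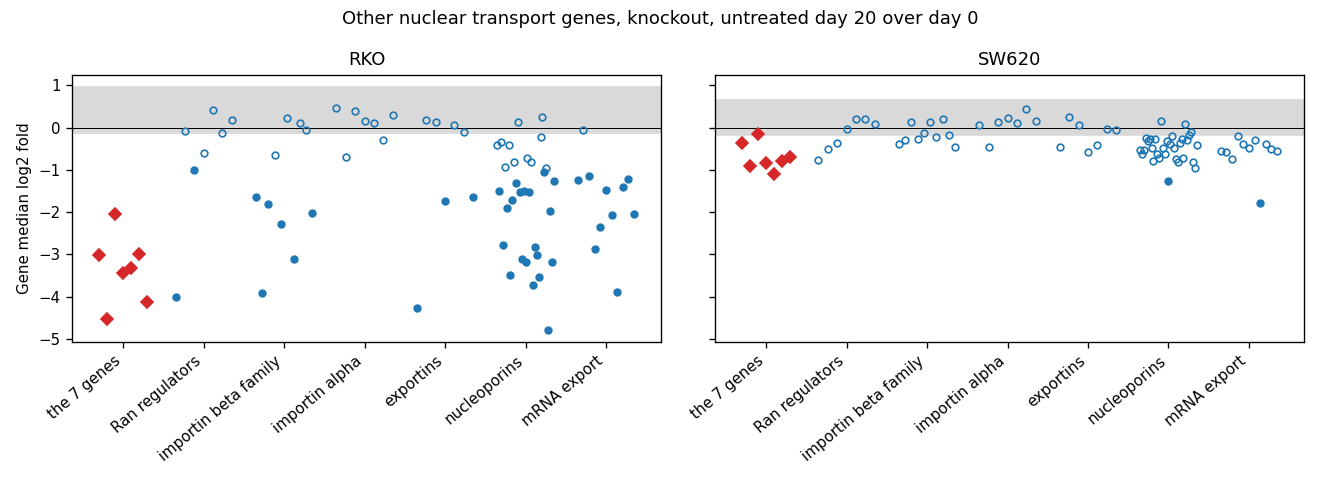
Gene median log2 folds of knockout guides, untreated day 20 over day 0, for the 7 genes (red diamonds) and the other nuclear transport lists (filled blue where called lower, open where not), in RKO (left) and SW620 (right). The grey band is the central 95% of non-targeting guides; in RKO 41 of the 73 list genes were called lower, against 11.6% of all genes, and in SW620 2, against 1.2%.

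Over 5 knockout values per gene (each day 20 library over day 0 of its line), likeness was measured as Euclidean distance among 19074 genes. The genes nearest to RANBP1 were RBM4 (0.90), CDCA8 (1.02) and EDC4 (1.11), and the nearest of the 7 genes, TNPO1, ranked 5163. Nearest to RCC1 were FTSJ2 (0.51), PSMC3 (0.55) and EIF2B1 (0.59), of which PSMC3 is a proteasome subunit and EIF2B1 a subunit of a translation initiation factor. Nearest to RANGAP1 were RPUSD4 (0.61), SS18L2 (0.63) and HSPA9 (0.65). Nearest to RAN were SF3B4 (0.41), CMTR1 (0.44) and TTC14 (0.48). SF3B4 is a splicing factor subunit and CMTR1 a methyltransferase of the mRNA cap. Nearest to KPNB1 were PFDN6 (0.80), NOP16 (0.83) and CEBPZ (0.84), and KPNB1 and TNPO1 were each other's nearest among the 7 genes, at 1.35. Nearest to TNPO1 were RPSA (0.35), SRSF3 (0.37) and POLR2E (0.67), which encode a ribosomal protein, a splicing factor and an RNA polymerase subunit. Nearest to XPO1 were EEF2 (0.62), VARS2 (0.98) and SDHB (1.00). The 5 values share the day 0 library of a line, and the distances are descriptions.

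Activation guides against the 7 genes stayed within the limits of a call over time without the drug. In RKO their medians were between −0.43 for RCC1 and 0.27 for RAN at untreated day 20 over day 0, and 0 of 7 were called, where 0.724% of all genes were called lower. In SW620 the medians were between −0.69 for RCC1 and 0.39 for KPNB1, and again 0 of 7 were called, where 0.389% of all genes were called lower. All 3 RCC1 guides were lower at day 20 in SW620, with 72.7, 159.9 and 116 scaled counts, against 146, 197 and 191 at day 0. TNPO1 and KPNB1 had all 3 guides higher at day 20 in SW620, each with a median of 0.39, inside the non-targeting range of −0.70 to 0.65.

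In SW620 under oxaliplatin 0 of 7 genes were called in the activation screen. At 0.38 µM over untreated the medians were between −0.38 for RAN and 0.73 for XPO1, where 0.751% of all genes were called higher and 1.76% lower. At 0.5 µM they were between −0.86 for KPNB1 and 0.70 for RANBP1, where 1.15% of all genes were called higher and 1.9% lower. The 3 RANBP1 guides had 172, 227 and 195 scaled counts in untreated cells, 176, 201 and 274 at 0.38 µM, and 283, 297 and 518 at 0.5 µM. All 3 were highest at 0.5 µM, but their folds over untreated lay inside the non-targeting range of −2.23 to 2.01. The untreated library holds 3647823 counts, the fewest of all, and 1 count there is worth 2.91 scaled counts.

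The RKO activation library under oxaliplatin gave 5 of the 7 genes as lower than in untreated cells, a share to be read against 47.2% of all genes called lower and 0.181% higher. Its median guide had 21 counts, 14.3% of its guides had none, and 1 count was worth 7.15 scaled counts. The non-targeting range was 0.63 to 6.22, so it excluded 0. The RANBP1 guides had 0, 6 and 1 counts there, and the RANGAP1 guides 2, 0 and 6. The medians were −3.96 for RANBP1, −3.77 for RANGAP1, −2.55 for TNPO1, −2.34 for XPO1 and −1.97 for KPNB1. Each of these 5 genes had a guide with at most 3 counts. With 1 guide left out, TNPO1, XPO1 and KPNB1 came to −0.31, −0.67 and −0.62 and were not called. RCC1 (2.45) and RAN (1.39) were not called. RCC1 guides had 2254, 873 and 0 scaled counts under oxaliplatin, against 300.2, 156 and 154 in untreated cells, so 1 gene held both high and absent guides.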

How the data were processed

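Guide cassettes amplified from genomic DNA were sequenced. The authors deposited raw counts per guide for each of the 4 screens, and a second table per screen with a signal on a normalized scale, in which each column equals the counts times 1 constant. The submitters' processing notes list the tools cutadapt 4.0 and MAGeCK 0.5.7. Their roles are not given in the sources used here, and the files name no genome build. All columns matched a sample by name.

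The genes and the lists of other transport genes were chosen with earlier results of these data known. The 17 comparisons are those the design implies (day 20 over day 0, oxaliplatin over untreated and over day 0, dose over dose, line minus line). Counts were scaled, filtered and summarised as given above with Python 3.11.15, pandas 2.3.3, numpy 2.4.6 and scipy 1.17.1. A gene was scored from 3 passing guides (knockout) or 2 (activation) upwards. The code was tested on simulated counts. With 1 library per condition no test was run, and p-values and count models were not used. Genes named beside the 7 are, per list, the 2 called with the largest folds in the untreated and the oxaliplatin over untreated knockout comparisons, and the 3 nearest to each of the 7. The list genes called lower under oxaliplatin over untreated in RKO, and 2 uncalled genes of the Ran regulator list, are named too. Depth was 3647823 to 69526489 counts per library. Guides were matched between lines by their number and gene. Alternatives tried were the added count (1 or 20), the filter (none or 50), the scaling, the mean over guides, the control range, the call rule and leaving out each guide in turn.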

Additional observations from a re-analysis of the deposited data

Results flagged for a closer look

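For 3 results the folds of oxaliplatin over untreated knockout cells had opposite signs in the lines at the SW620 dose at which the line difference was called. The differences were not tested, and the doses differ between the lines. RANBP1 had a median log2 fold of 3.46 in RKO and −0.54 in SW620 at 0.38 µM, and the median of the guide differences was 3.73. RANBP1 was chosen by that RKO fold, so its flag is a description and not support. At 0.5 µM RANBP1 had 0.24 in SW620, the same sign as in RKO, and its difference of 3.91 was not called. TNPO1 had 2.58 in RKO and −0.11 in SW620 at 0.38 µM, and the median difference was 2.90. At 0.5 µM TNPO1 had −1.27 in SW620, and its difference of 2.91 was not called. RCC1 had 1.54 in RKO, which was not called, and −1.12 in SW620 at 0.5 µM, and the median difference was 4.01. That difference rested on 3 of its 4 guides, and over all 4 without the filter it was 3.28 and not called. With 1 guide left out, the SW620 value of RCC1 at 0.5 µM was −2.47 to 0.22. At 0.38 µM RCC1 had 0.79 in SW620, the same sign as in RKO, and its difference of 1.28 was not called.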

How the results depend on the processing

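No paired analysis was possible because each condition has 1 library. Sampling of cells under the drug cannot be told apart from an effect of the guides, and intervals cover counting error only. The depletion of all 7 genes in untreated RKO knockout cells was called for 5 to 7 genes under the 10 alternatives, as was the RKO minus SW620 difference. In the activation screens without the drug, and in SW620 activation under it, 0 genes were called under all 10. RANBP1 under oxaliplatin over untreated in RKO was called under all 10, median 3.27 to 3.66 with a guide left out. It was chosen by this fold, so this is not support.

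Counts of the 7 genes called changed as follows. For RKO knockout oxaliplatin over untreated, the 3 genes became 1 with 20 added counts, with guides under 50 left out, with total counts, with the mean over guides and with olfactory receptor guides as the control range, and 4 by the 2-fold limit alone. For RKO oxaliplatin over day 0, the 5 became 3 with guides under 50 left out, 1 with olfactory receptor guides and 6, counting both directions, by the 2-fold limit alone. For SW620 at 0.38 µM over untreated, the 1 became 0 without a filter or with olfactory receptor guides and 2 by the 2-fold limit alone. For SW620 at 0.5 µM over untreated and over 0.38 µM, the 0 became 3 and 1 by the 2-fold limit alone. For 0.5 µM over day 0, the 1 became 0 with 20 added counts, total counts, non-targeting scaling, the mean or olfactory receptor guides, and 5 by the 2-fold limit alone. For 0.38 µM over day 0 the 4 became 1 with olfactory receptor guides and 5 with the mean or by the 2-fold limit alone. For untreated SW620 over time, the 1 became 4 with non-targeting scaling and 2 with the mean. For the line difference under oxaliplatin with 0.38 µM, the 2 became 1 with 20 added counts, guides under 50 left out or total counts, 4 without a filter or by the 2-fold limit alone, and 0 with olfactory receptor guides. With 0.5 µM, the 1 became 0 with 20 added counts, no filter, guides under 50 left out, the mean or olfactory receptor guides, 2 with total counts and 3 by the 2-fold limit alone. For RKO activation under oxaliplatin the 5 became 0 with olfactory receptor guides and 7, counting both directions, by the 2-fold limit alone. With 1 guide left out there, RCC1 was −1.27, −1.05 or 2.67, called lower at both negative values, and TNPO1 was −2.89 to 0.027. RCC1 was −1.09 there with total counts. The cause of these changes was not tested.

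Counts over all genes also moved. Genes called higher and lower numbered 123 to 2097 (227 as reported) and 26 to 1458 (522) for RKO oxaliplatin over untreated, and 46 to 1833 (49) and 771 to 3539 (3233) over day 0. For SW620 at 0.38 µM they numbered 26 to 950 (44) and 21 to 1635 (636) over untreated, and 12 to 1057 (15) and 69 to 2006 (1373) over day 0. At 0.5 µM they numbered 6 to 4790 (8) and 9 to 5808 (263) over untreated, 2 to 4887 (2) and 27 to 5949 (796) over day 0, and 14 to 5055 (31) and 10 to 5247 (174) over 0.38 µM. Untreated SW620 over time had 195 to 550 (230) called lower. The line difference had 3 to 27 (24) called higher over time. Under oxaliplatin it had 60 to 3517 (366) higher and 15 to 2461 (170) lower with 0.38 µM, and 40 to 5804 (269) higher and 8 to 4497 (27) lower with 0.5 µM. Activation counts were 7 to 4860 (34) higher and 59 to 13016 (8847) lower for RKO oxaliplatin, and 0 to 2 (0) higher and 85 to 168 (136) lower for RKO over time. They were 80 to 1648 (141) higher and 30 to 2027 (330) lower for SW620 at 0.38 µM, and 56 to 2318 (216) higher and 46 to 2831 (357) lower at 0.5 µM.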
